A study of Mus musculus with 16 samples.

Results

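Afp, Ttr, Apoa1, Apoa4, Apob, Apom, Apoe, Rbp4, Trf and Amn are 10 genes active in the endoderm of the yolk sac and, except for Amn, in fetal or adult liver. They were chosen by name as lipoprotein and carrier genes of those tissues. Amn, the exception, belongs to an uptake receptor and was lower in normal liver than in normal kidney. The genes are 10 of the 19938 genes with a probe set on the arrays. Each was read by 1 probe set that carries its symbol alone. Levels are log2 of the deposited intensity, and differences are log2 changes, where 1 unit is a doubling. They were followed across 6 groups of mouse samples from a study of reprogramming inside the living animal: 1 array of ES cells (embryonic stem cells) and 3 arrays for each of 5 kinds of tissue.

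The ES cells had the 129xC57BL6 F1 background, and the mice were made from that ES cell line. The tissues were of that F1 background or of a mix of its parent strains. Kidney tumors came from reprogrammable mice given doxycycline, the drug that switches the reprogramming factors on, from 4 weeks of age for 7 days, and were collected after a further 7 days without the drug. Control kidneys were age-matched. Liver tumors were primary tumors of reprogrammable mice, with no times of their own in the labels, and no age is given for normal liver. Secondary kidney tumors had been transplanted under the skin of immunodeficient mice, whose own cells may be present in the tissue. Tumors arose in chimeric mice and can hold cells of the ICR host strain. The labels do not say which arrays share an animal, and p-values therefore reflect the scatter among the arrays, part of which may be technical.

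Visceral endoderm, the outer layer of the early embryo's yolk sac, secretes serum carriers and lipoproteins before the liver takes over that work. Hepatocytes later release the same proteins into blood. Kidney proximal tubule takes such proteins back up from the filtrate through a receptor of which amnionless, the product of Amn, is a part, and visceral endoderm uses that receptor too.

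The promoters of Afp, Apoa1 and Apoa4 are shown because the Afp level differed between liver tumors and normal liver, and because Apoa1 and Apoa4, neighbours in 1 gene cluster, differed in opposite directions in kidney tumors. The sequences run from 250 bases before to 50 bases after the RefSeq gene start (build GRCm38.p6, plus strand), at chr5:90490464-90490763 for Afp, chr9:46228380-46228679 for Apoa1 and chr9:46240594-46240893 for Apoa4. Capitals mark letters that match a FoxA site (TGTTTGC) or a TATA box (TATAAA).
Afp: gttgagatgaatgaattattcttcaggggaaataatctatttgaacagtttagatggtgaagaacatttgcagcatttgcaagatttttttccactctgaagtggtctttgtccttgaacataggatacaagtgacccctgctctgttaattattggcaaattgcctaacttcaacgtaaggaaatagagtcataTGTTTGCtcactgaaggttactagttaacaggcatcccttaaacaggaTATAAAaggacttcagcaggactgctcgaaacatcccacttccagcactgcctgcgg
Apoa1: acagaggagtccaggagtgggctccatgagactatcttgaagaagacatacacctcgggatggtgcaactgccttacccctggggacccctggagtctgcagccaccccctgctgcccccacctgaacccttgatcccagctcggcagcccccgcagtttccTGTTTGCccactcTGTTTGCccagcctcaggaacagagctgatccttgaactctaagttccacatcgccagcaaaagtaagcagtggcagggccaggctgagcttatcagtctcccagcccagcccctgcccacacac
Apoa4: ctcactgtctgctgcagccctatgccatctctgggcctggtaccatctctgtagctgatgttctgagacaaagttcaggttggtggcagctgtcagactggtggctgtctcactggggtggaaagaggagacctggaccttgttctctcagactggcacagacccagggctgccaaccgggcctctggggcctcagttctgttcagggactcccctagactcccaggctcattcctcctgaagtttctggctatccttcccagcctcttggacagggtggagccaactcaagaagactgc

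Both strands were searched, and the motifs were chosen after the sequences had been seen. The FoxA letters begin 55 bases before the start of Afp and 88 and 75 bases before that of Apoa1, and are in 5.07% of the 32851 promoters of the table. The TATA letters are in 13.6% of promoters and begin 7 bases before the annotated start of Afp. No motif searched, including an HNF4 site (CAAAGTCC, in 1.42% of promoters), is in the Apoa4 window. The table held 11 promoters of 8 of the genes, and FoxA letters were in those of Afp, Apoa1 and Apob.

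Some arrays stood apart from others of their group. The median log2 level of 7 adipocyte genes was 9.98 in normal kidney 2, 10.45 in normal liver 1 and 9.87 in secondary kidney tumor 1, and 6.71 to 7.48 in the other arrays. Xist, the RNA of the inactive X chromosome, stood at 10.84 and 10.19 in kidney tumors 2 and 3 and at 10.45 and 11.35 in liver tumors 2 and 3, against 5.60 to 7.84 elsewhere. Slc34a1, the phosphate carrier of proximal tubule, stood at 11.29 in normal liver 1 and 9.54 in normal liver 2, and at 7.75 in normal liver 3. Where leaving these arrays out ended a call on one of the 10 genes, a value without some or all of them is given with that gene. Array medians lay between 7.58 and 7.82, and liver levels of several of the genes were near the highest value on any array, 14.31, so differences there may be compressed. The labelled tissues held their markers: the 21 plasma protein genes of hepatocytes had medians of 12.80 to 13.25 in the liver arrays and at most 7.58 in all others, and the 12 proximal tubule genes had medians of 12.97 to 13.01 in normal kidney.

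Set beside the ES cell array, both liver groups stood higher in every array for all genes but Amn. Between the normal tissues, 8 of the 10 genes were higher in liver than in kidney, Amn was lower and Afp did not pass (limma adjusted p under 0.05 over all genes; 37.8% of all genes were called, 16.4% higher and 21.4% lower). None of the 10 overlapped between the arrays of normal liver and normal kidney, and 56.4% of all genes had no overlap. For the 8 genes called higher the differences ran from 1.41 ± 0.18 (SE, n = 3) for Apom to 6.0 ± 0.15 for Apoa1, a 63.9-fold difference. The Afp difference was 0.87 and that of Amn -2.24, and the median over the 10 was 2.35 against 0.04 over all genes.

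**Figure D1:**
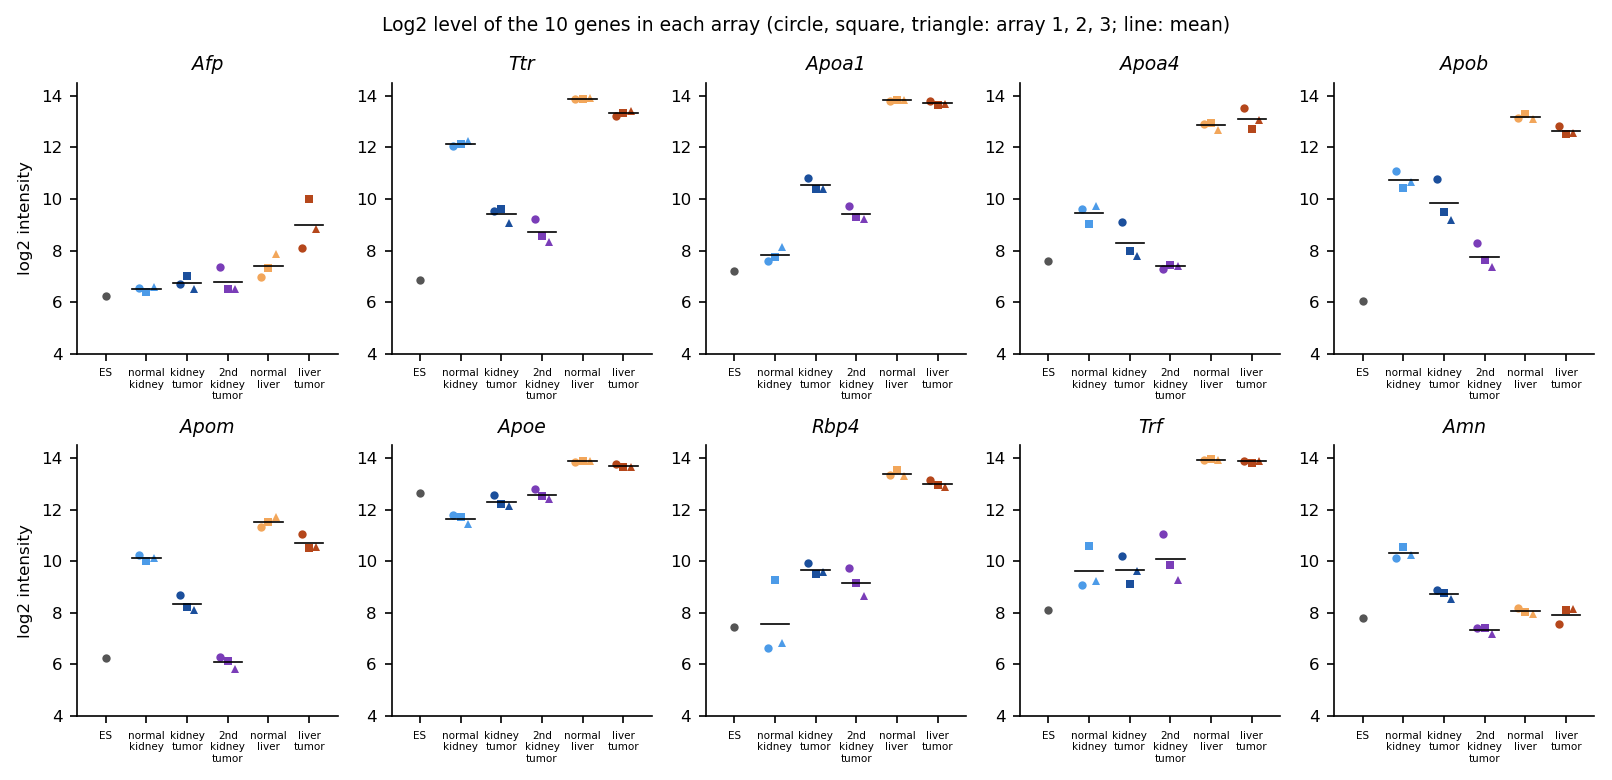
Log2 intensity of each of the 10 genes in all 16 arrays by group, with a line at the mean of each group of 3. Apoa1 was higher and Ttr, Apom and Amn were lower in every kidney tumor than in any normal kidney, while Afp was highest in the 3 liver tumors.

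In primary kidney tumors 3 of the 10 genes were higher than in normal kidney (Apoa1, Rbp4 and Apoe), 5 were lower (Ttr, Apom, Amn, Apoa4 and Apob) and Afp and Trf did not pass. In limma 49.8% of all genes were called in this comparison, 21.7% higher and 28.1% lower, and it is against this background that 8 of the 10 were called. The groups did not overlap for 6 of the 10, beside 64.6% of all genes. The median change was -0.44 over the 10 genes and -0.11 over all genes. Without kidney tumors 2 and 3, which carried Xist signal, 1 tumor array was left. The Apoa4 change was then -0.35 and the Apob change 0.064. That fit also called fewer genes over the whole table, so a call lost in it need not depend on the arrays left out. Bulk RNA cannot tell fewer cells of a type from less RNA per cell.

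In secondary kidney tumors Apoa1, Rbp4 and Apoe were higher than in normal kidney, Apom, Ttr, Apob, Amn and Apoa4 were lower. The groups did not overlap for 7 of the 10, beside 79.6% of all genes. This comparison uses the same normal kidney arrays as that of the primary tumors. The median change was -0.90 against -0.12 over all genes, of which 68.6% were called (29.9% higher, 38.7% lower). Set directly against primary tumors, 6 of the genes were lower in secondary tumors (Apom, Apob, Amn, Apoa1, Apoa4 and Ttr) and none passed as higher, with 36% of all genes called (18.5% higher, 17.4% lower) and medians of -0.81 and -0.07. The arrays of 5 of the 10 had no overlap, beside 56.2% of all genes. At an unadjusted p under 0.05 Apoe, with a difference of 0.28 ± 0.13 (adjusted p 0.100 in limma), was the 1 gene on the higher side.

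In liver tumors Afp was higher than in normal liver, Apom and Ttr were lower and 7 genes did not pass, while 52.3% of all genes were called (21.5% higher, 30.7% lower). The arrays of 7 of the 10 had no overlap, beside 59.2% of all genes, and the median change was -0.16 over the 10 genes and -0.13 over all genes. The tumor effect differed between the organs for 7 genes, higher in liver for Ttr, Amn, Apoa4 and Apom and lower for Apoa1, Rbp4 and Apoe, where limma called 16.8% of all genes, 9.26% as higher and 7.54% as lower.

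**Figure D2:**
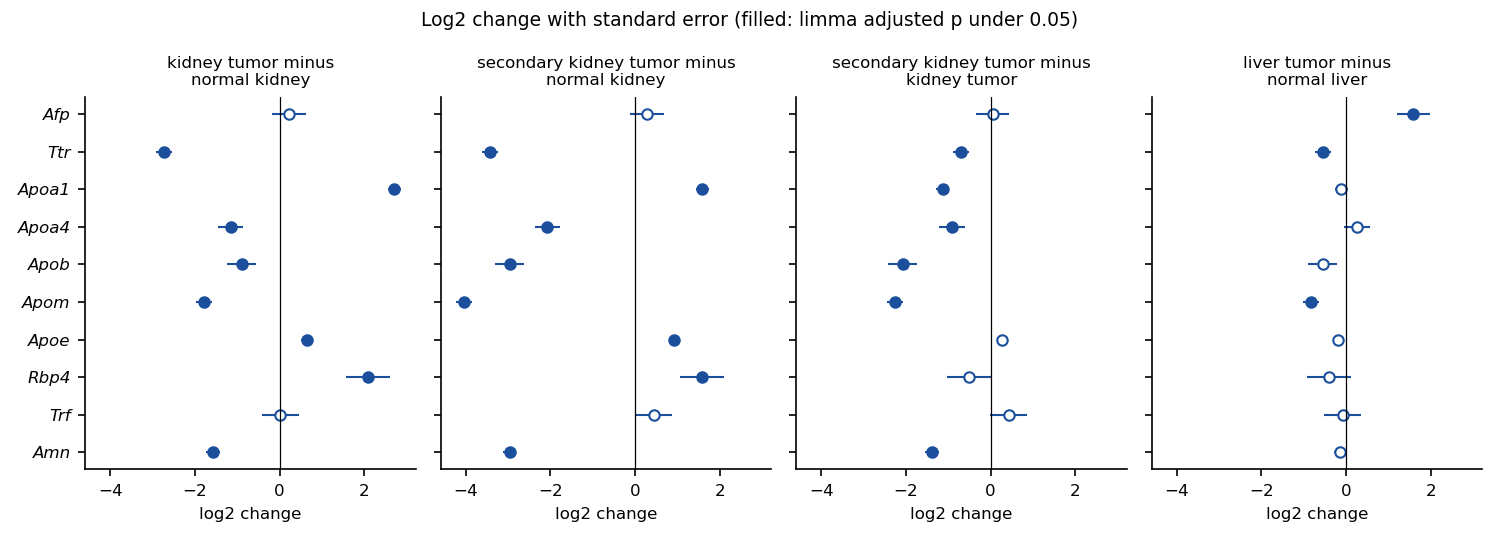
Log2 change of each gene (point) with its standard error (bar) in 4 comparisons, filled where the limma adjusted p was under 0.05. Changes in the kidney tumors spanned -2.74 to 2.71, against -0.83 to 1.59 in liver tumors.

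Afp encodes alpha-fetoprotein, the main serum protein of yolk sac and fetal liver, which is shut off in liver after birth. Its level was 8.10, 10.02 and 8.83 in the 3 liver tumors and 6.98, 7.32 and 7.87 in normal liver. The tumors did not overlap normal liver, and liver tumor 2 was the highest. The change of 1.59 ± 0.40 passed (adjusted p 0.00531 in limma), a 3.02-fold rise. Normal livers 1 and 2 lay below the lowest array median, 7.58, where levels cannot be told from background, so its size may be understated. The calls below concern the same change. Without liver tumors 2 and 3, which carried Xist signal, it was 0.71 (adjusted p 0.190), and without normal livers 1 and 2, which carried proximal tubule signal, 1.11 (adjusted p 0.161).

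Afp stayed near the ES cell level of 6.23 in kidney. It stood at 6.55, 6.41 and 6.59 in normal kidney, at 6.70, 7.03 and 6.50 in kidney tumors and at 7.38, 6.49 and 6.50 in secondary tumors. The kidney groups overlapped, and secondary tumor 1 was the highest. The kidney tumor difference was 0.23, with a 95% interval of -0.64 to 1.09 (adjusted p 0.652 in limma). The tumor effect in liver exceeded that in kidney by 1.37 ± 0.56, which did not pass (adjusted p 0.123), and by 1.81 without liver tumor 1 (adjusted p 0.0226).

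Albumin and afamin are encoded by Alb and Afm, which lie on either side of Afp in 1 cluster. In liver tumors Afm fell by 1.44 (SE 0.20, adjusted p 9.84e-05 in limma), whereas Alb stood at 13.75, 13.54 and 13.74 against 13.80, 13.89 and 13.76 and did not pass (-0.14 ± 0.35, adjusted p 0.748). In kidney tumors Alb stood at 7.41, 6.88 and 7.49 against 9.35, 9.53 and 10.14 in normal kidney. The Alb change was -2.41 ± 0.35 and the Afm change -1.67 ± 0.20, and both passed.

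Zhx2 and Zbtb20 encode 2 repressors of Afp in adult liver. In liver tumors Zbtb20 fell (-1.05 ± 0.32, adjusted p 0.0162 in limma), and Zhx2 did not pass (-0.14 ± 0.12, adjusted p 0.36). In kidney tumors, where Afp did not pass, both fell, with changes of -1.85 ± 0.32 for Zbtb20 and -0.87 ± 0.12 for Zhx2.

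Over the 16 arrays the genes whose level was most like that of Afp were Cyp3a16 (Pearson r 0.919), Cyp2c39 (0.867), Cdh17 (0.855), C1s2 (0.848) and Wnt8b (0.844), among 5396 genes that ranged over at least 2 log2 units. These correlations and those below run over the same 16 arrays, which fall into 6 groups, and carry no test.

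Ttr encodes transthyretin, which carries thyroid hormone and the retinol binding protein in blood and is also made by choroid plexus. It stood at 12.04, 12.14 and 12.26 in normal kidney, 9.53, 9.63 and 9.07 in kidney tumors and 9.22, 8.57 and 8.33 in secondary tumors. Every tumor was below every normal kidney, and the tumor groups overlapped each other. The change was -2.74 ± 0.19 in primary tumors (adjusted p 3.44e-07 in limma), a 6.67-fold fall, and -3.44 ± 0.19 in secondary tumors (adjusted p 9.8e-09). All stayed above the ES cell level of 6.84.

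In liver Ttr was 13.87, 13.88 and 13.90, and in liver tumors 13.24, 13.35 and 13.42. The groups did not overlap, but the change of -0.55 ± 0.19 (adjusted p 0.0291 in limma) is near the threshold. It did not pass when any 1 of 5 of the 6 liver arrays was left out (all but liver tumor 3), with adjusted p-values of 0.0575 without normal liver 1 and 0.0714 without liver tumor 1 among them. Without the tumor arrays with Xist signal it was -0.65 (adjusted p 0.0976), and without normal livers 1 and 2 it was -0.57 (adjusted p 0.166). The tumor effect on Ttr was 2.19 ± 0.27 higher in liver than in kidney (adjusted p 0.000207). Secondary tumors were 0.70 below primary ones (-0.70 ± 0.19, adjusted p 0.0114), and this too did not pass without kidney tumor 2 or secondary tumor 3 (adjusted p 0.0522 and 0.0572) or in a fit of the compared groups alone (adjusted p 0.0843).

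Of 8 other choroid plexus genes, 2 rose and 5 fell in kidney tumors, with Otx2, a head and choroid plexus transcription factor, up by 5.01 ± 0.29 and the chloride channel gene Clic6 by 3.27 ± 0.51, beside the fall of Ttr. Kl, the gene of the hormone co-receptor klotho, which kidney tubule also expresses, fell (-2.44 ± 0.35), as did the folate receptor gene Folr1 (-1.67 ± 0.30), and the median of the list was -0.86. The genes most like Ttr over the 16 arrays were Cpn1 (Pearson r 0.977), Tlcd4 (0.976), Gsta3 (0.968), Ugt2b5 (0.968) and Osgin1 (0.965).

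Rbp4 encodes the serum carrier of retinol. Its level was 6.62, 9.28 and 6.85 in normal kidney, 9.93, 9.52 and 9.59 in kidney tumors and 9.73, 9.14 and 8.64 in secondary tumors. Normal kidney 2 stood well above the other two and overlapped the secondary tumors, and this is the array with adipocyte signal. The change in kidney tumors was 2.10 ± 0.52 (adjusted p 0.00455 in limma), and 2.95 without normal kidney 2 (adjusted p 5.61e-06). Without the tumor arrays with Xist signal it was 2.35 (adjusted p 0.0639).

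In secondary tumors the change of Rbp4 was 1.59 ± 0.52 (adjusted p 0.0163 in limma), and 2.16 without the 3 arrays with adipocyte signal (adjusted p 1.35e-05). It did not pass without normal kidney 1 (1.11, adjusted p 0.0822), normal kidney 3 (1.22, adjusted p 0.0772) or secondary tumor 1 (1.31, adjusted p 0.0653). Against primary tumors Rbp4 was lower by 0.51 with all arrays (-0.51 ± 0.52, adjusted p 0.469), and without the 3 adipocyte arrays the difference was -0.79 (adjusted p 0.00827).

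In liver Rbp4 stood at 13.34, 13.53 and 13.29, and at 13.14, 12.95 and 12.87 in liver tumors. The tumors were all lower, but the difference did not pass (-0.40 ± 0.52, 95% interval -1.53 to 0.73, adjusted p 0.527 in limma). In a fit of the liver groups alone the same -0.40 had an adjusted p of 0.0334. The effect in liver tumors was 2.50 below that in kidney tumors (-2.50 ± 0.74, adjusted p 0.0347), which passed without normal kidney 2 (-3.35, adjusted p 0.000137). It did not pass without any 1 of 10 of the other 11 arrays (all but liver tumor 1), for example without normal kidney 1 (-2.02, adjusted p 0.0806). It also did not pass without kidney tumors 2 and 3 (-2.75, adjusted p 0.118), the tumor arrays with Xist signal (-2.60, adjusted p 0.247) or normal livers 1 and 2 (-2.41, adjusted p 0.158).

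Stra6, the cell-surface receptor of retinol binding protein, rose by 0.98 ± 0.17 in kidney tumors, 0.67 ± 0.17 in secondary tumors and 0.65 ± 0.17 in liver tumors (adjusted p 0.000422, 0.00428 and 0.00803 in limma).

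Trf encodes transferrin, the iron carrier of blood. It stood at 9.08, 10.59 and 9.22 in normal kidney, 10.19, 9.12 and 9.61 in kidney tumors and 11.06, 9.87 and 9.29 in secondary tumors. The highest normal kidney and the highest secondary tumor were the arrays with adipocyte signal, and the groups overlapped. The kidney tumor difference was 0.01 with a 95% interval of -0.94 to 0.96 (adjusted p 0.984 in limma), and 0.49 without the adipocyte arrays (adjusted p 0.157).

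In liver Trf was 13.94, 13.97 and 13.93 and in liver tumors 13.90, 13.82 and 13.89. These 3 tumors were below the 3 normal livers by a difference, -0.08, that did not pass (adjusted p 0.891 in limma) and lies near the top of the arrays' range. The standard error of this difference, 0.44, draws on the spread in all groups. Within the liver groups the standard deviation was 0.02 in normal liver and 0.04 in tumors. Tfrc, the transferrin receptor, fell in secondary tumors (-0.87 ± 0.16, adjusted p 0.000426) and did not pass in kidney tumors (0.15 ± 0.16, adjusted p 0.451) or liver tumors (-0.16 ± 0.16, adjusted p 0.402).

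**Figure D3:**
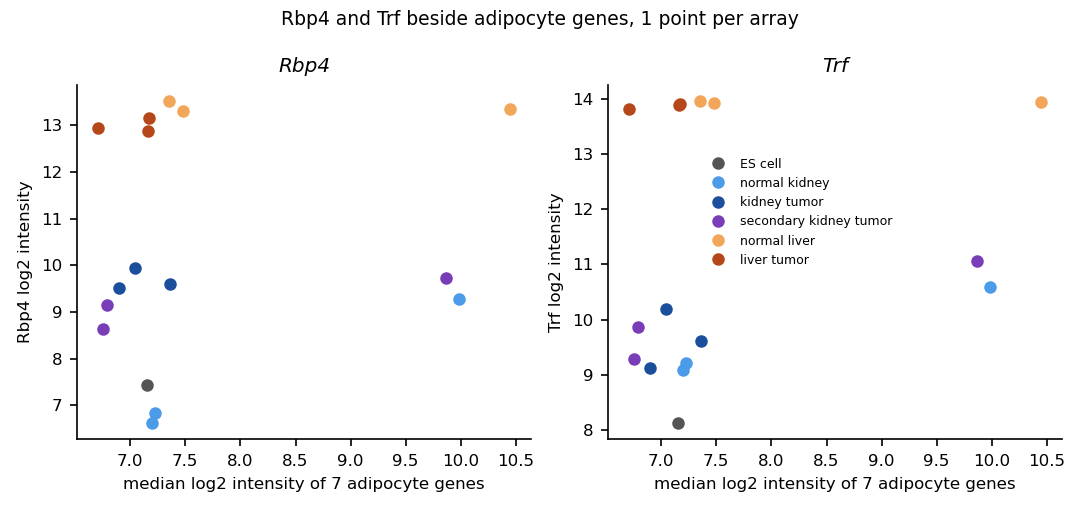
Log2 intensity of Rbp4 (left) and Trf (right) against the median log2 intensity of 7 adipocyte genes, 1 point per array, coloured by group. The points at 9.87, 9.98 and 10.45 on the x axis are secondary kidney tumor 1, normal kidney 2 and normal liver 1; in kidney groups these arrays had the highest Trf of their group and, in normal kidney and secondary tumors, the highest Rbp4.

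Apolipoproteins are the protein part of lipoprotein particles. Apoa1, the main protein of high density lipoprotein, stood at 7.61, 7.76 and 8.12 in normal kidney, 10.81, 10.39 and 10.41 in kidney tumors and 9.71, 9.29 and 9.23 in secondary tumors. The 3 groups did not overlap, in the order primary tumor, secondary tumor, normal kidney, and the ES cell array was below all at 7.22. The change was 2.71 ± 0.15 in primary tumors (adjusted p 7.58e-08 in limma), a 6.53-fold rise, and 1.58 ± 0.15 in secondary tumors (adjusted p 1.3e-06). Secondary tumors were below primary ones (-1.12 ± 0.15, adjusted p 8.41e-05).

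In liver Apoa1 stood at 13.78, 13.85 and 13.85 and in liver tumors at 13.78, 13.65 and 13.70. These groups overlapped and the difference did not pass (-0.11, 95% interval -0.45 to 0.22, adjusted p 0.541 in limma). The effect in liver was 2.82 below that in kidney (-2.82 ± 0.22, adjusted p 1.03e-05). Apoa1 in the kidney tumors stayed below every liver array. Most like Apoa1 over the 16 arrays were the sialyltransferase gene St6gal1 (Pearson r 0.983), Abcc3 (0.973), Rbp4 (0.967), Fgb (0.966) and Pik3ap1 (0.965).

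Apoa4, an apolipoprotein of chylomicrons, lies in the cluster of Apoa1. It stood at 9.60, 9.04 and 9.72 in normal kidney, 9.11, 8.0 and 7.79 in kidney tumors and 7.28, 7.46 and 7.42 in secondary tumors. Kidney tumor 1 overlapped normal kidney, and the secondary tumors lay below all. The change in primary tumors was -1.16 ± 0.30 (adjusted p 0.00598 in limma), but without kidney tumors 2 and 3, the arrays with Xist signal, -0.35 (adjusted p 0.436). In secondary tumors it was -2.07 ± 0.30 (adjusted p 4.92e-05). The difference between secondary and primary tumors (-0.91 ± 0.30, adjusted p 0.0306) did not pass without kidney tumor 1 (-0.51, adjusted p 0.108) or without any of the 3 secondary tumors.

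In liver Apoa4 was 12.92, 12.96 and 12.68 and in liver tumors 13.54, 12.73 and 13.08. The groups overlapped, and the difference did not pass (0.26, 95% interval -0.39 to 0.92, adjusted p 0.467 in limma), although without liver tumors 2 and 3 it was 0.69 (adjusted p 0.0486). The tumor effect was 1.42 ± 0.43 higher in liver than in kidney (adjusted p 0.0366), and was lost in 9 of the 12 fits that left out 1 array, for example 1.17 without kidney tumor 3 (adjusted p 0.0898). Without kidney tumors 2 and 3 it was 0.61 (adjusted p 0.387). It also did not pass without the arrays with adipocyte signal (1.66, adjusted p 0.0645), the tumor arrays with Xist signal (1.03, adjusted p 0.0838) or normal livers 1 and 2 (1.60, adjusted p 0.101).

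The cluster's other genes, Apoc3 and Apoa5, encode regulators of triglyceride clearance. Apoc3 stood at 10.62, 7.25 and 7.26 in kidney tumors and at 9.23, 8.92 and 9.28 in normal kidney, so tumor 1 was above and tumors 2 and 3 below every normal kidney, and the mean difference did not pass (-0.77 ± 0.64, adjusted p 0.333 in limma). Apoa5 did not pass in kidney tumors (-0.01 ± 0.13, adjusted p 0.95). Kidney tumor 1 had the highest level of its group for 8 of the 10 genes (all but Afp and Ttr) and also had Cyp2e1, a cytochrome P450 gene of liver and kidney, at 13.10 against 11.39 and 10.63. Fits without kidney tumor 1 or without tumors 2 and 3 are given with the genes whose calls they changed.

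**Figure D4:**
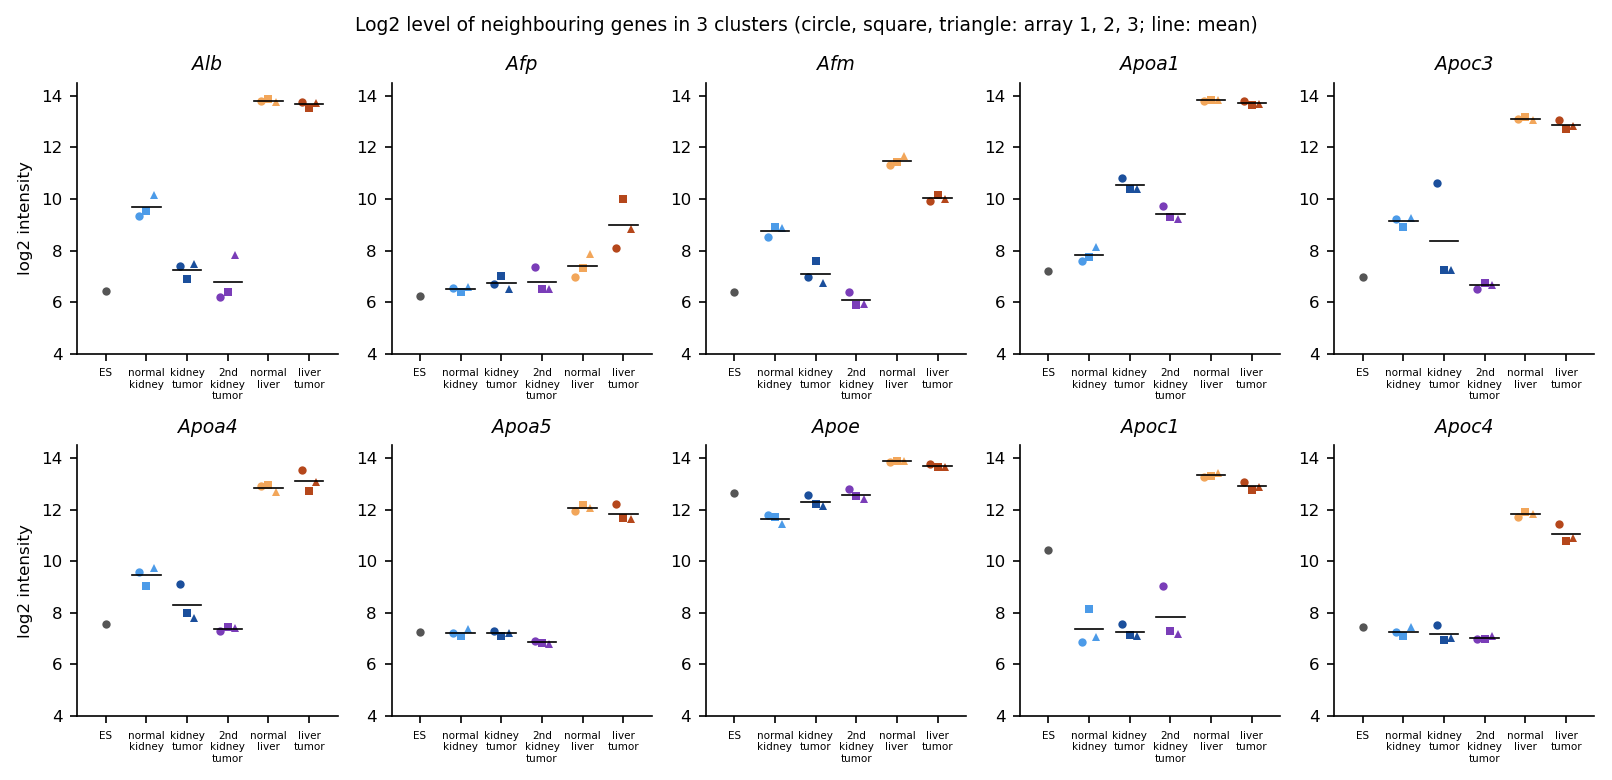
Log2 intensity of genes that neighbour each other in 3 clusters (Alb, Afp and Afm; Apoa1, Apoc3, Apoa4 and Apoa5; Apoe, Apoc1 and Apoc4), per array, with group means as lines. In kidney tumors Apoa1 is above normal kidney while Apoa4 lies at or below it, and Apoc3 splits with 1 array at 10.62 and 2 at 7.25 and 7.26.

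Apob, the structural protein of low density and very low density lipoproteins, stood at 11.08, 10.42 and 10.66 in normal kidney, 10.79, 9.50 and 9.20 in kidney tumors and 8.29, 7.64 and 7.35 in secondary tumors. Kidney tumor 1 lay within the normal range, tumors 2 and 3 below it, and the secondary tumors below all of these. The primary tumor change was -0.89 ± 0.34 with an adjusted p of 0.0458 in limma. It was 0.064 without tumors 2 and 3 (adjusted p 0.907), and did not pass without normal kidney 1 (-0.71, adjusted p 0.156), normal kidney 3 (-0.92, adjusted p 0.0856), tumor 2 (-0.73, adjusted p 0.151) or tumor 3 (-0.58, adjusted p 0.198). It also did not pass under quantile normalization (-0.85, adjusted p 0.0611) or in a fit of the 2 groups alone (adjusted p 0.113). Without normal kidney 2 and normal liver 1 it was -1.04 (adjusted p 0.0576).

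In secondary tumors Apob fell by 2.96 (SE 0.34, adjusted p 6.52e-06 in limma), a 7.80-fold change, and it was lower than in primary tumors (-2.07 ± 0.34, adjusted p 0.000405). In liver it was 13.15, 13.30 and 13.12 and in liver tumors 12.84, 12.53 and 12.57. The tumors were all lower, but the difference did not pass (-0.55 ± 0.34, 95% interval -1.29 to 0.20, adjusted p 0.194). In a fit of the liver groups alone it had an adjusted p of 0.0126.

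Mttp encodes the protein that loads lipid onto apolipoprotein B. It fell in all 3 tumor groups, with changes of -0.90 ± 0.18 in kidney tumors, -1.66 ± 0.18 in secondary tumors and -1.18 ± 0.18 in liver tumors (adjusted p 0.000906, 3.18e-06 and 0.000162 in limma). Apobec1, the enzyme that edits Apob mRNA, is part of the list of lipoprotein handling genes below.

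Apom, a carrier of sphingosine 1-phosphate on high density lipoprotein, stood at 10.24, 10.02 and 10.12 in normal kidney, 8.68, 8.23 and 8.09 in kidney tumors and 6.27, 6.14 and 5.81 in secondary tumors. None of these groups overlapped another, and the secondary tumors spanned the ES cell level of 6.24. The changes were -1.79 ± 0.18 (adjusted p 5.89e-06 in limma) and -4.05 ± 0.18 (adjusted p 2.32e-09), and secondary tumors were below primary ones (-2.26 ± 0.18, adjusted p 8.17e-07). Levels as low as those of the secondary tumors cannot be told from background here, so both differences that involve them may be understated.

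In liver Apom was 11.34, 11.54 and 11.72 and in liver tumors 11.07, 10.50 and 10.55. No liver tumor overlapped normal liver. The change of -0.83 ± 0.18 passed (adjusted p 0.00261 in limma), but without liver tumors 2 and 3, the arrays with Xist signal, it was -0.47 (adjusted p 0.0928). The tumor effect was 0.96 ± 0.26 higher in liver (adjusted p 0.0236), and it did not pass without normal kidney 1 (0.90, adjusted p 0.0578), kidney tumor 2 (0.91, adjusted p 0.0576), kidney tumor 3 (0.84, adjusted p 0.0617) or normal liver 1 (0.87, adjusted p 0.0546). It was 0.61 without kidney tumors 2 and 3 (adjusted p 0.258). It also did not pass without the arrays with adipocyte signal (0.92, adjusted p 0.0842), the tumor arrays with Xist signal (0.97, adjusted p 0.0523) or normal livers 1 and 2 (0.77, adjusted p 0.175).

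Apoe, a ligand of lipoprotein receptors made by hepatocytes, macrophages and glia, was the 1 gene of the 10 whose level in ES cells, 12.66, was above that of all 3 normal kidneys. It stood at 11.79, 11.72 and 11.46 in normal kidney, 12.55, 12.22 and 12.13 in kidney tumors and 12.80, 12.54 and 12.40 in secondary tumors. Every tumor was above every normal kidney, and the tumor groups overlapped. The changes were 0.64 ± 0.13 (adjusted p 0.000883 in limma) and 0.93 ± 0.13 (adjusted p 2.83e-05). Secondary tumors were above primary ones by 0.28 (adjusted p 0.100), and by 0.41 without kidney tumor 1 (adjusted p 0.0207).

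Beside the Apoe rise, 10 of 12 macrophage genes rose in kidney tumors and 9 in secondary tumors, and their summed intensity was 12014 to 13046 and 11983 to 23274, against 3767 to 4410 in normal kidney. Of 6 astrocyte genes 5 rose and 1 fell in secondary tumors, and 3 fell and 3 did not pass in kidney tumors. Their part in the Apoe change was not tested. In liver Apoe stood at 13.85, 13.90 and 13.90 and in liver tumors at 13.78, 13.67 and 13.67, without overlap and without passing (-0.18, adjusted p 0.241 in limma), close to the top of the range. The effect in liver was 0.82 below that in kidney (-0.82 ± 0.18, adjusted p 0.00715).

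The Apoe neighbours Apoc1 and Apoc4 did not pass in kidney tumors (-0.08 ± 0.42 and -0.09 ± 0.18, adjusted p 0.878 and 0.697 in limma). In liver tumors Apoc4 fell by 0.77 (SE 0.18, adjusted p 0.00303).

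Amn encodes amnionless, the membrane anchor of the cubilin receptor of proximal tubule, gut and visceral endoderm. Its level was 10.12, 10.54 and 10.24 in normal kidney, 8.87, 8.77 and 8.54 in kidney tumors and 7.40, 7.42 and 7.19 in secondary tumors. None of these groups overlapped another, and the secondary tumors were below the ES cell array (7.81). The changes were -1.58 ± 0.16 (adjusted p 4.52e-06 in limma) and -2.96 ± 0.16 (adjusted p 6.86e-09), with -1.39 ± 0.16 between secondary and primary tumors (adjusted p 1.64e-05).

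Amn was the 1 gene of the 10 that was lower in liver than in kidney (-2.24 ± 0.16, adjusted p 1.38e-07 in limma). In liver it stood at 8.19, 8.04 and 7.97, and in liver tumors at 7.56, 8.10 and 8.14, overlapping (-0.13, 95% interval -0.47 to 0.21, adjusted p 0.487), and without liver tumors 2 and 3 the difference was -0.51 (adjusted p 0.0451). The tumor effect was 1.44 ± 0.22 higher in liver than in kidney (adjusted p 0.00085).

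Beside Amn, all 12 proximal tubule genes fell in secondary tumors and 8 in primary tumors, and their summed intensity was 100659 to 103721 in normal kidney, 26041 to 47415 in kidney tumors and 1279 to 1711 in secondary tumors, near the 1724 of the ES cell array. The part of proximal tubule cells in the Amn change was not tested. The genes most like Amn over the 16 arrays were Hoxd9 (Pearson r 0.985), Tmed6 (0.984), Eci3 (0.981), Nus1 (0.981) and Kif12 (0.980).

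Cubn and Lrp2 encode cubilin and megalin, the receptors that work with amnionless. In normal kidney Cubn stood at 12.77, 12.93 and 12.83 and in kidney tumors at 11.70, 11.74 and 10.84, all lower but not past the threshold (-1.42 ± 0.57, adjusted p 0.0529 in limma). The Lrp2 difference was alike in standing (-1.25 ± 0.49, adjusted p 0.0516). In secondary tumors the Cubn change was -4.72 ± 0.57, and the changes of Lrp2 and of Dab2, their endocytic adaptor, were -4.22 ± 0.49 and -1.56 ± 0.42, which passed too.

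In liver tumors Cubn stood at 7.49, 9.70 and 9.29 against 8.61, 7.16 and 6.42 in normal liver, overlapping, with a change of 1.43 ± 0.57 (adjusted p 0.0486 in limma). Lrp2 rose by 1.53 ± 0.49 (adjusted p 0.021), also with overlap. Normal liver 1, with the proximal tubule signal, was the highest normal liver for both, and without it the changes were 2.04 for Cubn (adjusted p 0.00816) and 2.25 for Lrp2 (adjusted p 0.000206). Without normal livers 1 and 2 they were 2.41 and 2.83 (adjusted p 0.0208 and 0.000178). Leaving out the 4 tumor arrays that carried Xist, the Cubn difference was 0.097 (adjusted p 0.922) and that of Lrp2 2.11 (adjusted p 0.0625), and neither passed. Amn did not pass in the same comparison.

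**Figure D5:**
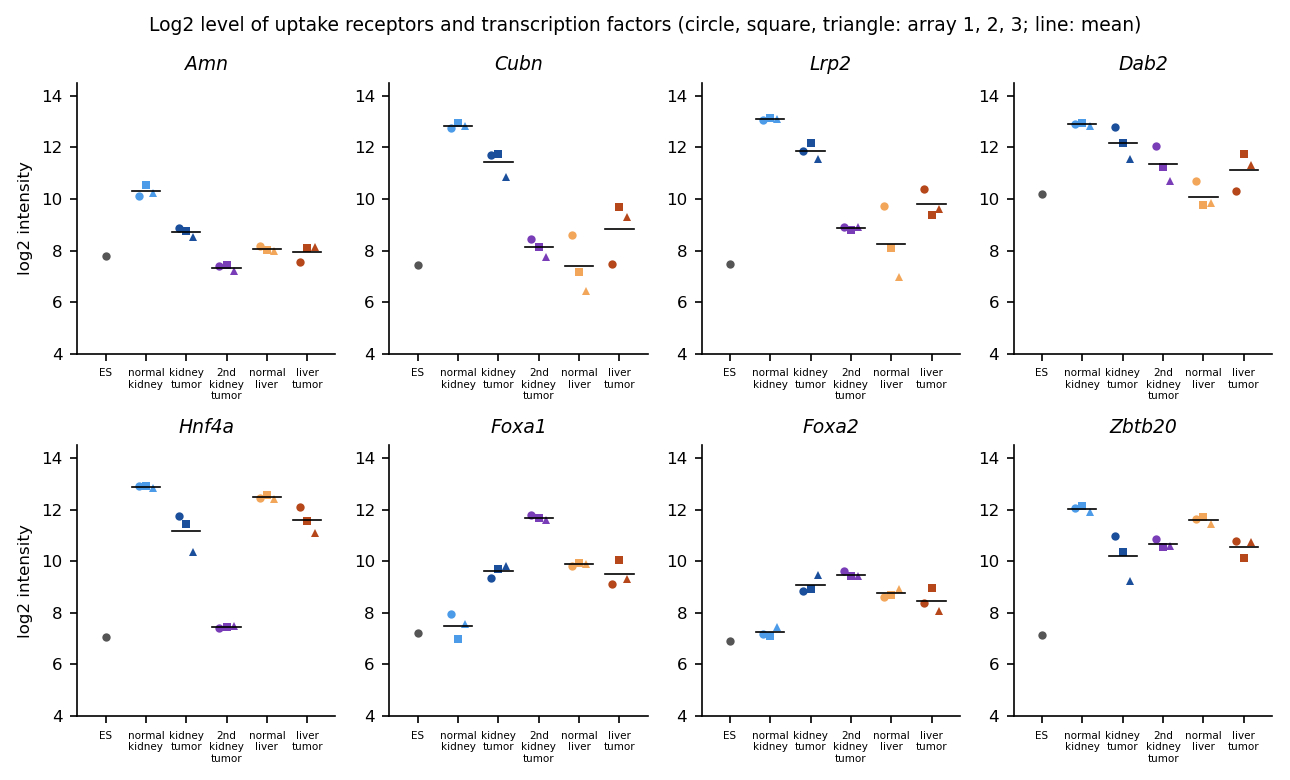
Log2 intensity of Amn with its partner genes Cubn, Lrp2 and Dab2 (top) and of 4 transcription factor genes (bottom), per array and group, with lines at group means. Amn, Cubn and Lrp2 are highest in normal kidney, and in secondary tumors Hnf4a lies at 7.40 to 7.50 while Foxa1 is at its highest.

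Other genes of these pathways were counted in lists. Beside these and the list counts above, 21.7% of all genes were called higher and 28.1% lower in kidney tumors. The shares were 29.9% and 38.7% in secondary tumors, and 21.5% and 30.7% in liver tumors. Of 17 measured visceral endoderm genes, 10 rose and 2 fell in kidney tumors (median 1.31), 6 rose and 6 fell in secondary tumors (median 0.18), and 9 rose and 2 fell in liver tumors (median 0.76). In kidney tumors the largest changes were in Cer1, a secreted Nodal antagonist (5.69 ± 0.51), and Eomes, a T-box factor (3.81 ± 0.28), genes that early mesendoderm also expresses. Spink1, a trypsin inhibitor of visceral endoderm, rose in liver tumors by 3.33 ± 0.43. A rise in kidney and liver tumors was not particular to the visceral endoderm list. Of 10 parietal endoderm genes 5 rose and 1 fell in kidney tumors (median 0.49), and 7 rose in liver tumors (median 0.74). Of 8 pluripotency genes 5 rose and 1 fell in kidney tumors (median 2.82), and 5 rose in liver tumors (median 2.72).

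Of 13 other apolipoprotein genes, 2 fell in kidney tumors and 11 did not pass. The 2 were Apoh, beta-2-glycoprotein I (-2.42 ± 0.54), and Apoa2, the second protein of high density lipoprotein (-0.81 ± 0.08). In secondary tumors 1 rose, Apod (3.23 ± 0.34), a lipocalin-type carrier also made by glia, and 4 fell. In liver tumors 1 rose, the acute phase gene Saa2 (1.00 ± 0.36), and 4 fell, among them Apof (-0.90 ± 0.13). The list medians were -0.04, -0.29 and -0.53.

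Of 17 genes of lipoprotein handling, 7 rose and 6 fell in kidney tumors (median -0.02), 9 rose and 8 fell in secondary tumors (median 0.64), and 2 rose and 9 fell in liver tumors (median -0.48). Lpl, the lipase that clears triglyceride from particles, fell in kidney tumors (-2.60 ± 0.31), while Lrp8, an Apoe receptor, rose (1.47 ± 0.12). In secondary tumors Pltp, the phospholipid transfer protein, rose by 3.02 ± 0.18. In liver tumors the lipase gene Lipg fell (-1.64 ± 0.29) and Vldlr, another Apoe receptor, rose (1.53 ± 0.25).

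Of 12 carrier uptake genes, 1 rose and 4 fell in kidney tumors, 1 rose and 9 fell in secondary tumors, and 3 rose and 3 fell in liver tumors, with medians of -0.63, -1.13 and -0.19. Lrpap1, the chaperone of megalin, fell in kidney tumors (-1.27 ± 0.22). Lrat, the retinol-esterifying enzyme of stellate cells, fell in liver tumors (-2.49 ± 0.30).

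Hepatocyte genes gave a comparison for the rise of Apoa1 and Rbp4 in kidney tumors. Of 21 plasma protein genes 4 rose and 10 fell (median -0.52). Those that rose were the fibrinogen genes Fgg (2.34 ± 0.32) and Fgb (1.68 ± 0.26), the vitronectin gene Vtn (2.21 ± 0.31) and the ceruloplasmin gene Cp (0.88 ± 0.25), and Alb and Itih2 had the largest falls (-2.41 ± 0.35 and -2.49 ± 0.24). Of 8 adult hepatocyte enzyme genes 1 fell, G6pc (-1.84 ± 0.50), and 7 did not pass. Of 11 hepatoblast genes 9 rose (median 1.94), with Igf2 (4.85 ± 0.46) and the glypican gene Gpc3 (2.85 ± 0.32) first. This last list does not mark liver in these arrays. Its median level was 9.79 in the ES cell array, 9.30 to 9.59 in normal liver and 10.99 to 11.21 in secondary tumors.

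In liver tumors, where Afp rose, 5 of the plasma protein genes fell and 16 did not pass (median -0.25). Of the enzyme genes 6 fell, Cyp1a2 most (-3.49 ± 0.17). Of the hepatoblast genes 6 rose and 2 fell, among them Gpc3 (3.16 ± 0.32) and the epithelial adhesion gene Epcam (2.83 ± 0.33), both higher.

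Of 19 liver transcription regulators, 5 rose and 9 fell in kidney tumors, 5 rose and 11 fell in secondary tumors, and 14 fell and 5 did not pass in liver tumors, with medians of -0.20, -0.61 and -1.02. Hnf4a, the nuclear receptor that drives many apolipoprotein genes, stood at 12.92, 12.90 and 12.83 in normal kidney, 11.74, 11.45 and 10.35 in kidney tumors and 7.40, 7.44 and 7.50 in secondary tumors. These groups did not overlap, and the changes were -1.70 ± 0.30 and -5.43 ± 0.30 (adjusted p 0.000372 and 8.96e-09 in limma). The pioneer factor gene Foxa1 rose in both (2.13 ± 0.25 and 4.19 ± 0.25), as did Foxa2 (1.83 ± 0.22 and 2.24 ± 0.22). In liver tumors Hnf4a fell (-0.89 ± 0.30, adjusted p 0.0242), and Creb3l3 and Cebpa had the largest falls (-1.49 ± 0.11 and -1.49 ± 0.19).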

How the data were processed

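Total RNA of 16 samples (RNeasy Plus Mini, WT Terminal Labeling kit, per the labels' protocols) was measured on 1-channel Affymetrix arrays. The authors deposited a linear intensity for every probe set (20.7 to 20262). How they corrected and normalized it is not given in the sources used here. No detection p was used. Values were turned into log2 and not rescaled. The platform annotation names 1 gene for 21789 of 28856 probe sets, several for 1621 and none for 5446; the probe set of highest mean was kept per symbol (19938 genes), and no dim gene was removed. Promoters came from RefSeq (GRCm38.p6) by symbol.

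Groups were compared in limma 3.58.1 (R 4.3.3) in 1 model of the 6 groups (residual degrees of freedom 10, prior 2.66) with 6 contrasts. Calls were made at an adjusted p under 0.05, 2-sided, by Benjamini-Hochberg across the whole table. Errors are standard errors, intervals cover 95%, and the number of arrays limits the precision. All groups share a gene's estimate of spread. The steps were run on simulated data in which few genes changed and a gene's spread was equal in all groups. The real data differ in both, so this was a check of the steps and does not give their error rates here.

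The genes and the lists were chosen with earlier results of these data known. Named beside the 10 genes were their uptake partners, cluster neighbours, the factors Hnf4a, Zhx2 and Zbtb20, from each list up to 2 called genes of largest change without overlap per contrast, and for 4 genes the 5 most correlated; Foxa1, Foxa2, Mttp, Pltp, Cyp2e1, Kl, Folr1, Fgg, Fgb, Vtn, Cp, Slc34a1 and Xist were named after their values were seen. Gc, also of that rule, had no probe set with its symbol alone, and Apoc2 shared its probe set. Alternatives were other scalings, filters, probe set rules, variance models and left-out arrays.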

Additional observations from a re-analysis of the deposited data

Results flagged for a closer look

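The tumor effect (tumor against normal tissue of the same organ) differed between liver and kidney for 7 of the 10 genes, by the test of the difference itself in limma (adjusted p under 0.05), where 16.8% of all genes were called, 9.26% as higher and 7.54% as lower in liver. The effect in liver minus that in kidney was 2.19 for Ttr, 1.44 for Amn, 1.42 for Apoa4 and 0.96 for Apom, which fell in kidney tumors by more than in liver tumors or did not pass there. It was -2.82 for Apoa1, -2.50 for Rbp4 and -0.82 for Apoe, which rose in kidney tumors and did not pass in liver tumors. The calls on Rbp4, Apoa4 and Apom were lost in several of the fits that left out 1 array. Rbp4 and Apoa4 also did not pass in a fit of the compared groups alone (adjusted p 0.0506 and 0.0656 in limma). Liver levels of Ttr, Apoa1 and Apoe lie close to the highest value on any array. For Afp (1.37), Apob (0.35) and Trf (-0.09) the difference did not pass.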

How the results depend on the processing

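Of 1110 changes of single genes under the alternatives, 1027 stayed on their side of the threshold. The 1110 include fits under other probe set rules, which could not move the levels of genes with 1 probe set. Their outcome was nearly fixed in advance, and it raises the count that stayed. Some of the 1027 passed in neither fit and changed sign. The Trf difference in kidney tumors was 0.01 with all arrays and -0.26 without normal kidney 1. Of the rest, 72 kept the direction but lost the threshold, 9 newly passed it and 2 called changes reversed. Both reversals were Apob in kidney tumors, 0.064 without kidney tumors 2 and 3 (adjusted p 0.907 in limma) and 0.064 without the 4 tumor arrays with Xist signal (adjusted p 0.902); the cause was not tested.

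The 5 genes lower in kidney tumors became 3 in each of those fits. In liver tumors the 2 lower genes became 1 under quantile normalization, without normal kidney 2 and normal liver 1, without the Xist tumor arrays and without normal livers 1 and 2, and 4 in a fit of the compared groups alone; the 1 higher gene became 0 without normal livers 1 and 2. For the difference between organs the 4 higher genes became 2 without kidney tumors 2 and 3, without the adipocyte arrays, without the Xist arrays and without normal livers 1 and 2. The last 3 choices were added after the data had been seen. Leaving out 1 array at a time gave 3 higher and 4 to 5 lower genes in kidney tumors, 2 to 3 and 5 in secondary tumors, 0 to 1 and 4 to 6 for secondary against primary, 1 and 1 to 2 in liver tumors, 8 and 1 for liver against kidney, and 2 to 4 and 2 to 3 between organs.

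Replicate numbers were not taken as a pairing, since in no comparison were all 3 same-number correlations of the arrays' deviations over 0.1. They were 0.06, 0.05 and 0.06 for kidney tumor with normal kidney and 0.04, 0.08 and 0.14 for secondary with primary tumors. For kidney with liver tumors they were 0.27, 0.25 and 0.0038. Pairs of different number reached at most 0.02, 0.03 and 0.15 in these comparisons. Every same-number value was thus the higher for kidney tumor with normal kidney and for secondary with primary tumors, and a weak match by number is not excluded. With the replicate block, 1 gene in place of 0 was higher in secondary than in primary tumors, Apoe (0.28, adjusted p 0.0438), and no other count of called genes moved by over 1.5 times. Centring each array on its median moved the median over all genes from -0.11 to -0.22 in kidney tumors, from -0.12 to -0.33 in secondary tumors and from -0.13 to -0.24 in liver tumors. Each of the 10 genes had 1 probe set, so the probe set rule could not move their levels. Without detection p-values, low levels cannot be told from background. Such levels, below the lowest array median of 7.58, include those of Afp in kidney and in normal livers 1 and 2, and of Amn and Apoa4 in secondary tumors. Rbp4 in normal kidneys 1 and 3 was that low too. The sizes of changes that involve these levels may be understated.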
